A study of Mus musculus with 22 samples.

Results

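The Oct4 ChIP peaks called in arteries of smooth muscle cell (SMC) Oct4 knockout mice and absent from the wild-type list numbered 2546. They were chosen by the peak calls of both genotypes, as knockout peaks on chromosomes 1 to 19 that shared no base with any wild-type peak, outside 1 Mb bins in which either list held 20 or more summits. They are called knockout-only peaks here. They made up 52.7% (exact 95% binomial interval 51.3 to 54.2) of the 4828 knockout peaks on these chromosomes outside dense bins. The whole knockout list held 7479 peaks, of which 966 lay in 19 dense autosomal bins and 1685 on the sex chromosomes, scaffolds or the mitochondrial genome. Of the 966 peaks in dense bins, 473 also lacked a wild-type peak.

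The study measured, by chromatin immunoprecipitation and sequencing (ChIP-seq), where an Oct4 antibody recovered DNA in atherosclerotic arteries with and without Oct4 in SMCs. The groups were Oct4-WT/WT and Oct4-KO/KO mice of the C57BL/6 strain, all apoE-deficient and all carrying a tamoxifen-inducible Cre recombinase driven by the Myh11 promoter with an eYFP lineage reporter. The Oct4 gene was deleted in cells that expressed the Cre, by tamoxifen given from 6 until 8 weeks after birth, and the controls were littermates. Both groups then ate a Western diet for 18 weeks, and frozen aortic segments from root to carotid bifurcation were taken from 15 mice of each genotype, giving 1 ChIP sample per genotype. The tissue held a mixture of cell types, of which only SMCs lost Oct4, so the other cells of the knockout sample kept the gene. The Cre transgene lies on the Y chromosome, so the mice were male. With 1 sample per genotype the spread between replicates is unknown, and every interval and test over peaks covers counting error within these 2 samples only.

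Oct4, the product of Pou5f1, is a POU-domain transcription factor known as a master regulator of pluripotent stem cells, where it acts together with Sox2 and Nanog. Its POU domain reads an octamer of DNA, ATGCAAAT, which other POU factors also bind. In arteries the gene has been studied for a part in SMC migration and investment of lesions. Since the antibody target was deleted in SMCs of the knockout sample, its peaks with no wild-type counterpart report on what the antibody recovered in tissue whose SMCs lacked the factor.

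The knockout-only peaks were weak, narrow and uniform. Their median fold enrichment was 7.52 (quartiles 6.84 and 8.21, range 4.10 to 15.7), where fold enrichment is the summit pileup plus 1 over the expected pileup plus 1. The summit pileup, the number of fragments stacked at the highest point, had a median of 10 fragments (quartiles 9 and 11) and ran from 5 to 22. The smallest pileup that passed the authors' caller was 5 fragments in both lists, over an expected pileup of 0.462 fragments in the knockout and 0.458 in the wild-type. Median width was 41 bp. The narrowest peaks were 39 bp in the knockout list and 41 bp in the wild-type list, so the smallest width differed between the lists. The 2282 knockout peaks that overlapped a wild-type peak, called shared here, had a median fold of 11.6 (quartiles 8.89 and 16.4) and a median pileup of 16 fragments, with a maximum of 78. These values come from the same calls that selected the peaks, so they are given without a test.

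**Figure D1:**
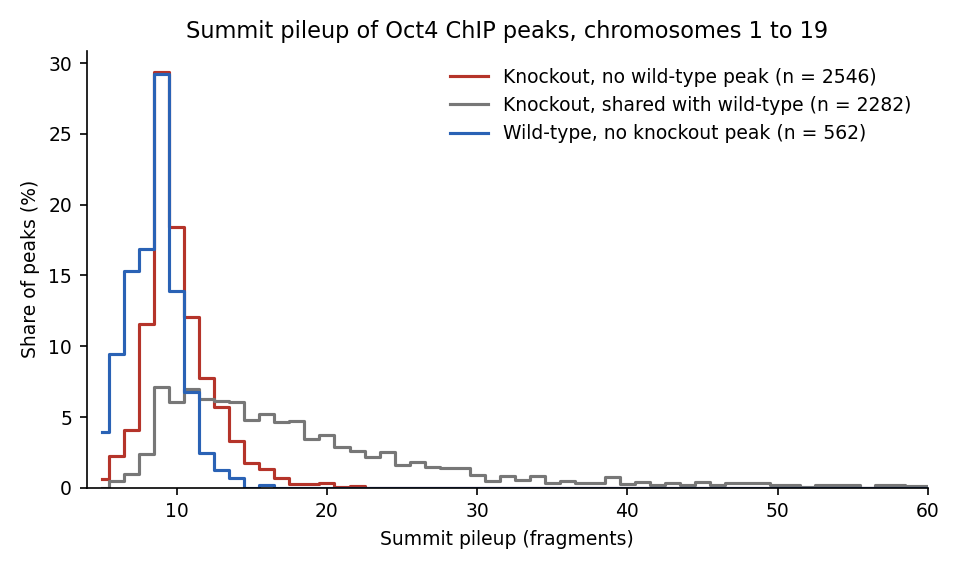
Distribution of the summit pileup (fragments, x axis, drawn to 60) as the share of peaks (%, y axis) for knockout-only peaks, shared knockout peaks and unmatched wild-type peaks. The knockout-only peaks crowd at 9 to 11 fragments and end at 22, while shared peaks have a median of 16 and reach 78.

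The mirror set, wild-type peaks with no knockout peak under the same rule, held 562 of 2840 wild-type peaks, or 19.8% (18.3 to 21.3). Their median pileup was 9 fragments, with a maximum of 16. In both genotypes the unmatched share fell with the pileup. At 5 to 7 fragments 84.3% of knockout peaks and 83.4% of wild-type peaks had no counterpart, a class that held 6.95% of the knockout-only peaks. At 8 to 9 fragments, the class with the most knockout-only peaks (41.0%), the shares were 82.7% of 1263 knockout peaks and 38.3% of 676 wild-type peaks. At 10 to 11 fragments these shares were 72.3% of 1075 knockout peaks and 18.9% of 614 wild-type peaks, and at 12 to 14 fragments 50.3% and 5.05%. At 15 to 19 fragments they were 17.2% of 628 knockout peaks and 0.285% of 351 wild-type peaks. The unmatched shares were thus close at 5 to 7 fragments and apart at 8 to 19 fragments. The knockout list was the longer one, with 4828 against 2840 peaks outside dense bins. An unmatched share depends on the lengths of both lists, so these shares alone do not describe a property of the peaks. At 20 to 29 fragments 12 of 503 knockout peaks and 0 of 275 wild-type peaks were unmatched, and from 30 fragments upward none of 300 knockout peaks was. Sites under the caller's limit are not listed, so the wild-type signal at a knockout-only peak is not known beyond the absence of a call.

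Most knockout-only peaks lay far from any wild-type peak. The median gap to the nearest one was 241002 bp, and 23 peaks had a wild-type peak closer than 100 bp, 59 closer than 500 bp and 179 closer than 10000 bp. No gap for other positions of the genome is given beside these values, so they are a description. Just inside the rule, a knockout peak near Gm14226 lay 2 bp from a wild-type peak, with 6 fragments against 7 in the wild-type. A peak near Dnah14, which encodes an axonemal dynein, lay 6 bp away, with 7 fragments against 10. Just outside it, a knockout peak near Smgc overlapped a wild-type peak by 11 bases (6 against 7 fragments) and one near Snrpe by 14 bases (9 fragments in both). Peaks at the edge of the rule therefore had near neighbours of like height on its other side, but they were few.

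Among the 20 knockout-only peaks with the largest −log10 q, the pileup ran from 18 to 22 fragments. The last 2 of the 20, near Gm19965 and Ttll6, were taken from 6 peaks tied at 18 fragments by the text order of chromosome names, so that the other 4 of equal value are not named. The highest pileup, 22 fragments (fold 15.7, −log10 q 26.0), was reached at 3 peaks, nearest to Rab21, Slit3 and Nbas. Rab21 encodes a small GTPase of endosomal traffic, and its peak lay in an intron 3.05 kb downstream of a transcript start. Slit3 encodes a secreted guidance cue that binds Robo receptors, and its peak lay in an intron of the gene, 247 kb from the nearest wild-type peak. The Nbas peak was intergenic, 182 kb downstream of the start of this gene of Golgi-to-endoplasmic-reticulum transport. The peak in an intron of Kif13a, a kinesin motor, had 21 fragments and a wild-type peak 9.20 kb away.

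Pileups of 20 fragments stood at 8 of the 20. These included a peak 79.5 kb upstream of Akap12, a scaffold of protein kinase A, and one 4.56 kb upstream of Adcy3, an adenylyl cyclase that makes cyclic AMP. A further peak lay 5.95 kb from Retnlb, which encodes a resistin-like secreted protein. Others stood near Enpp5, of the nucleotide pyrophosphatase family, in an intron of Kat14, a histone acetyltransferase, and 7.61 kb upstream of Bcan, a proteoglycan of brain matrix. The last ones were 74.7 kb from the transcript CK137956 and within Ccdc18, where the nearest start was that of Dr1, a repressor of transcription by RNA polymerase II. The summits near Enpp5 and CK137956 lay outside repeat-masked sequence, and the other 18 of the 20 lay within it.

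The remaining peaks of these 20 had 18 or 19 fragments. Those in introns of their nearest gene lay in Chd7, a chromatin remodeller, Gne, the enzyme that starts sialic acid synthesis, Trim54, a muscle RING-finger protein, and Ttll6, a tubulin polyglutamylase. The peak named for Trmt1, a tRNA methyltransferase, lay within Nacc1, and that named for Gm19965 lay within Cntnap5a. The peak nearest to Crim1, which encodes a membrane protein that binds bone morphogenetic proteins, was 1219 kb away from its start.

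The positions of knockout-only peaks relative to genes are given without the share of other genome positions, so they are a description. Within 1 kb of a transcript start of a protein-coding gene there were 119 (4.67%), 55 of them upstream and 64 downstream. A further 763 (30.0%) lay at 1 to 10 kb, 1120 (44.0%) at 10 to 100 kb, 512 at 100 to 1000 kb and 32 beyond. The median distance was 19482 bp, against 26257 bp for shared knockout peaks, of which 24.6% lay at 1 to 10 kb. By annotation, 1203 peaks (47.3%) were intergenic and 1080 (42.4%) lay in introns of protein-coding genes. Introns of other genes held 137, non-coding exons 65, untranslated regions 44 and coding sequence 17.

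**Figure D2:**
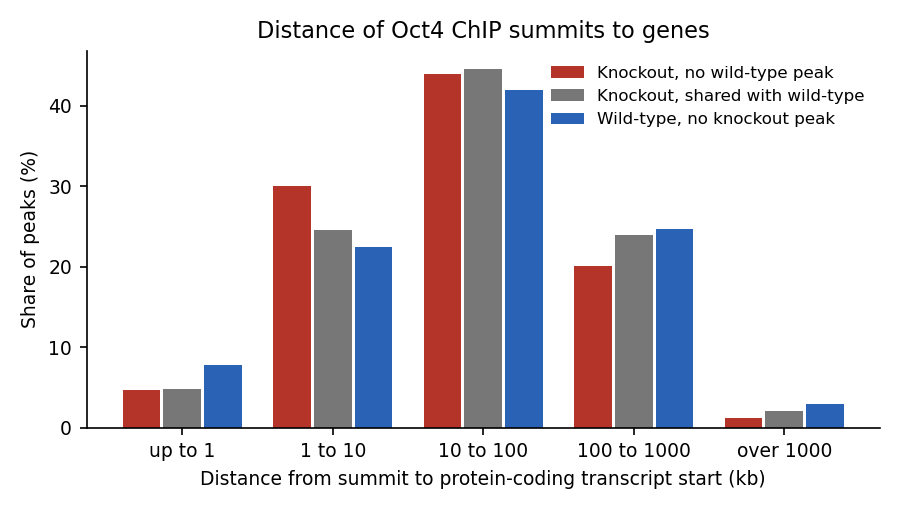
Share of peaks (%, bars from 0) by distance from the summit to the nearest transcript start of a protein-coding gene (kb) in the same 3 sets. The bar at 1 to 10 kb stands at 30.0% for knockout-only peaks and 24.6% for shared knockout peaks, while the bars up to 1 kb stand at 4.67% and 4.82%.

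The strongest promoter peak, at Asic3, an acid-sensing ion channel, lay 0.834 kb upstream of the start with 19 fragments (fold 13.7). Hba-a2, an adult alpha-globin gene, had a peak of 17 fragments 0.764 kb upstream. The Slc45a4 peak had 17 fragments in an intron 0.651 kb downstream. Podn, a small leucine-rich proteoglycan of the matrix, carried a peak of 17 fragments downstream of its start, the one summit among the 10 strongest promoter peaks outside repeat-masked sequence.

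The peaks at Ogg1, a DNA glycosylase that removes oxidised guanine, Rhog, a small GTPase, and Spink8, of the serine protease inhibitor family, each had 15 fragments. Peaks of 14 fragments lay 0.363 kb from a start of Glud1, which encodes mitochondrial glutamate dehydrogenase, 0.574 kb from Zgrf1, a helicase, and 0.911 kb from Eya3, a phosphatase and transcriptional coactivator. The Rhog peak had a wild-type peak 2.90 kb away, the shortest such gap among these 10.

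Coding sequence held 17 knockout-only peaks, and 5 of them lay in exons of 1 gene, Cdc27, a subunit of the anaphase-promoting complex. Their pileups were 10, 11, 13, 13 and 16 fragments, and none of the 5 summits was repeat-masked. They were all the knockout-only peaks of Cdc27, which was also nearest to 3 shared peaks. Another lay in coding sequence of Hc, complement component 5, with 11 fragments, and another in Tomm40, a mitochondrial import channel, with the lowest pileup of 5 fragments and a wild-type peak 1.04 kb away. These coding peaks were singled out after their values were seen.

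Summits of knockout-only peaks stood in repeated sequence far more often than their surroundings. The summit base was repeat-masked in 2057 peaks (80.8%, 79.2 to 82.3), whereas the bases 1000 bp to each side were masked in 34.7%. The shared knockout peaks gave 83.5% and 34.8%. In 1957 knockout-only peaks (76.9%) the 31 bases at the summit occurred once in the assembly, against 63.8% of shared peaks and 48.0% of unmatched wild-type peaks. Both held, a masked summit and a single copy, for 1525 knockout-only peaks (59.9%). In 144 of them (5.66%) these 31 bases occurred 100 times or more.

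The 10 runs of 8 letters most enriched within 40 bp of knockout-only summits, taken in turn on both strands, were CTGTAATC, GAGGCTGA, TAATCCCA, CAAAAAAA, AGTAGCTG, GGGCAACA, GACCAGCC, CTCACACC, TAAAAAAA and TACAGGCA. At least 1 of the 10 was present in 1307 peaks (51.3%). Among the 20 peaks with the largest −log10 q, all but those near Nbas, CK137956, Gne and Gm19965 held at least 1. They were chosen on these same peaks, so the enrichment is a description. CTGTAATC and TAATCCCA overlap in the longer run CTGTAATCCCA, so a window could hold both.

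The run CTGTAATC is one known from short interspersed elements. Alu elements of primates and B1 elements of mouse both descend from 7SL RNA, and the usual text of an Alu holds CTGTAATC where that of a B1 holds CTTTAATC. Within 100 bp of the summit, CTGTAATC was present in 316 knockout-only peaks (12.4%, 11.2 to 13.8), against 0.982% of windows 1000 bp beside them and 0.773% of all windows of that length on chromosomes 1 to 19. CTTTAATC was present in 213 (8.37%), against 3.18% beside and 2.03% of all windows. TAATCCCA was in 19.2%, 3.38% beside and 2.10% of all windows, and GAGGCTGA in 11.6%, 1.51% and 1.23%. Counting each occurrence, CTGTAATC was 27.2% of both forms together over chromosomes 1 to 19, but 59.7% at knockout-only summits (321 against 217 occurrences). Beside the same summits it was 24.2%. The form that is the rarer one in the mouse genome was thus the commoner one under these peaks.

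**Figure D3:**
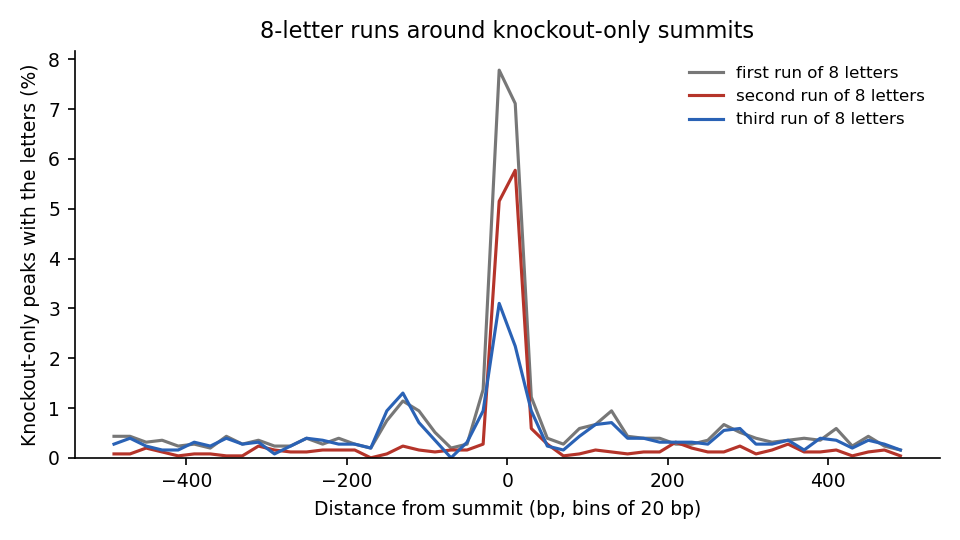
Share of knockout-only peaks (%, y axis) that hold each of 3 runs of letters in bins of 20 bp by distance from the summit (bp, x axis). The first run is TAATCCCA, the second CTGTAATC and the third CTTTAATC, and all 3 rise at the summit, where CTGTAATC stands above CTTTAATC.

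The shared knockout peaks had the same balance, with 12.1% holding CTGTAATC, 8.41% holding CTTTAATC and 59.0% of occurrences in the CTGTAATC form. Unmatched wild-type peaks held CTGTAATC in 2.49% and CTTTAATC in 3.02%. A run of 15 A, on either strand, was present in 11.6% of knockout-only peaks, against 1.73% beside them, 1.23% of all windows, 9.42% of shared peaks and 28.6% of unmatched wild-type peaks. CCCTAACC, the telomere repeat, was in 0.393% of knockout-only and 7.19% of shared peaks. The reads were not analysed here, and whether human DNA was among the fragments aligned to the mouse genome was not tested. The letters and nearest genes of the knockout-only peaks are therefore given as the deposited positions place them.

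**Figure D4:**
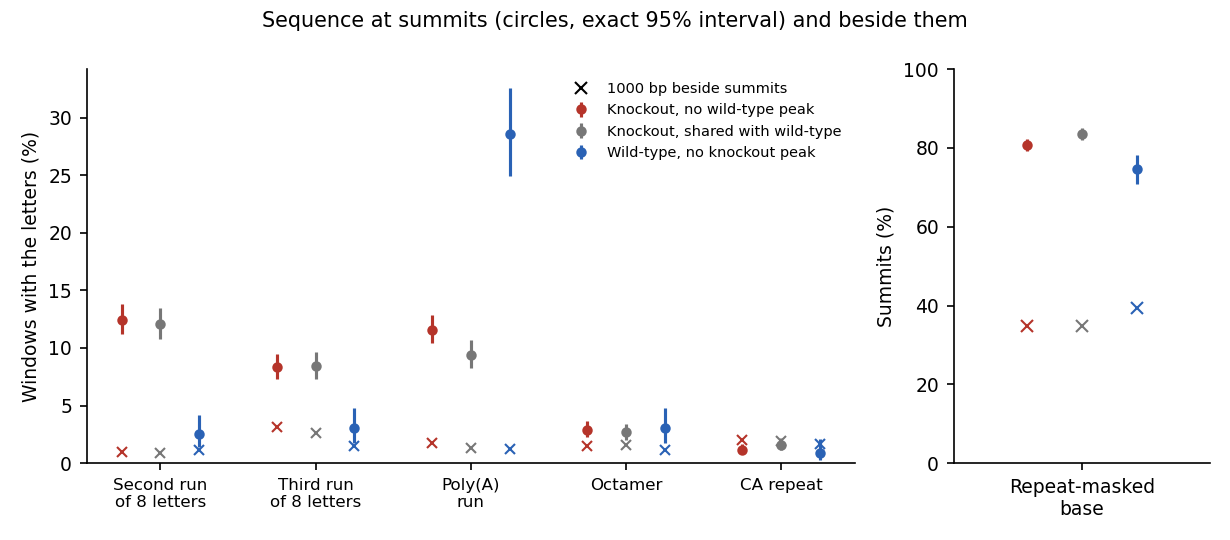
Left, share of windows of 100 bp to each side (%) that hold CTGTAATC (second run), CTTTAATC (the third), 15 A in a row, the octamer or 10 CA in a row, at summits (circles with exact 95% binomial intervals) and 1000 bp beside them (crosses) in the 3 sets; right, share of summits (%) that are repeat-masked. Knockout-only peaks hold the second run in 12.4% at summits and 0.982% beside, and are masked in 80.8% and 34.7%.

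The octamer was rare under knockout-only peaks. ATGCAAAT, on either strand within 100 bp of the summit, was present in 74 of 2546 (2.91%, 2.29 to 3.64), against 1.53% of windows beside them and 1.71% of all windows of that length. Of the 74, 31 had its centre within 20 bp of the summit. One such peak is shown as an example, and it need not be typical of the 31. It lay nearest to Fkbp1a, which encodes a binding protein of immunosuppressant drugs, and had 12 fragments (fold 8.89). The line gives the summit and the 50 bases to each side of it, on the plus strand of GRCm38.p6, 5′ to 3′, with the octamer in capitals. This peak lies outside the rule for named genes and was chosen after its values were seen.
Fkbp1a, chr2:151534836-151534936: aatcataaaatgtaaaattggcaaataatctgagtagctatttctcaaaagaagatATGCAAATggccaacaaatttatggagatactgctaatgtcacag

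Many octamers under these peaks stood in a longer run of letters that recurs in the genome. LINE-1 retrotransposons of mouse and human carry the octamer followed by CAAAAC. The octamer shown near Fkbp1a lacks this continuation, and whether it lies in another repeat was not tested. At knockout-only summits 30 of 75 octamers (40%) were followed by CAAAAC, against 6 of 80 (7.50%) beside them and 16.6% of 214915 octamers over chromosomes 1 to 19. Without those, 44 peaks (1.73%, 1.26 to 2.31) held an octamer, against 1.41% of windows beside them (1.11 to 1.78). The same count for shared knockout peaks was 1.49% at summits and 1.40% beside. The higher octamer share at summits therefore lay for the most part in the octamers with this continuation, a split that was chosen after sequences at summits were seen.

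By −log10 q the strongest knockout-only peaks with an octamer were nearest to Impact, a regulator of translation, at 16 fragments, and to Vav3, a guanine nucleotide exchange factor, Ubn2, a histone chaperone subunit, and Ntm, a cell adhesion protein of neurons, at 15 each. Those near Plekhg3, an exchange factor, and Mettl4, a methyltransferase, had 14. All 6 summits were repeat-masked, as were 64 of the 74 with an octamer. The median fold was 7.52 with and without an octamer.

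Letters read by other transcription factors were near or below their level beside the peaks. SOX factors read ACAATG, which was in 11.5% of windows at summits, 12.2% beside and 12.5% of all windows of that length. For TGANTCA, the site of AP-1, the shares were 6.01%, 6.21% and 5.99%. The GATA factors' AGATAA stood at 11.1%, 11.7% and 13.2%, and the KLF factors' GGGNGGGG at 6.01%, 6.58% and 5.69%. The CArG box of serum response factor, which governs contractile genes of SMCs, was in 18 knockout-only peaks (0.707%), against 0.844% beside and 1.15% of all windows. Lowest against their surroundings were CCAAT, at 23.2%, 27.8% and 29.2%, and GGAATG of the TEAD factors, at 7.93%, 10.8% and 10.9%. All were sought on both strands, and a match is a run of letters, not a bound site.

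Knockout-only and shared knockout peaks were compared in 5 features that the rule did not use, by two-sided Fisher's exact tests adjusted by Benjamini-Hochberg over the 5. By this exact test, lying within 1 kb of a start differed by −0.146 percentage points (95% interval −1.36 to 1.05, adjusted p = 0.839). Lying inside a protein-coding gene, 46.4% against 44.1%, differed by 2.30 points (−0.515 to 5.10, exact test, adjusted p = 0.278). The octamer share differed by 0.233 points (−0.714 to 1.17, exact test, adjusted p = 0.828). None of these 3 differences passed 0.05.

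The share of repeat-masked summits, 80.8% against 83.5%, differed by −2.69 points (−4.84 to −0.519), which did not pass after adjustment (Fisher's exact p = 0.0162, adjusted p = 0.0809). Runs of 10 CA were in 1.18% against 1.58% (exact test, adjusted p = 0.440). Among peaks of 10 to 13 fragments, 1119 knockout-only and 581 shared, the difference in masked summits was −0.181 points. It passed 0.05 when most bases within 50 bp of the summit, and not the summit base, had to be masked (−7.02 points, exact test, adjusted p = 1.93e-06), with dense bins kept (−3.15 points, exact test, adjusted p = 0.0260) and with bins left out from 10 summits (−3.21 points, exact test, adjusted p = 0.0200).

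The nearest protein-coding genes of the knockout-only peaks numbered 2128, which is 10.2% of the 20780 such genes on chromosomes 1 to 19. Of these, 1810 had 1 knockout-only peak and 259 had 2. A shared knockout peak was also nearest to 469 of them, and a wild-type peak to 557. The summit lay within a protein-coding gene for 1182 peaks, and for 1055 of them that gene was also the nearest.

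Most knockout-only peaks, 9, fell to Galr1, a galanin receptor, within 8.27 kb at 237 to 245 kb from its start, with folds of 4.10 to 7.52. Gm14226 had 7 within 4.60 kb, with folds up to 6.16. The genes 4931408C20Rik, Hnf4g and Zfp709 had 6 each. Hnf4g, a nuclear receptor, also had 9 shared peaks, while Zfp709, a zinc finger gene, had 0. In all, 155 of the 2546 peaks had another knockout-only peak within 10 kb. The rule had left out the dense bins beforehand, so this count does not measure how often such clusters occur.

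The nearest genes were then counted in groups by function, beside 10.2% of all genes. Genes of cell guidance and migration had 20 of 75 members (26.7%, exact 95% interval 17.1 to 38.1) nearest to a knockout-only peak. Genes of cadherin and synaptic adhesion had 38 of 155 (24.5%), growth factor, TGF-beta, Wnt and Notch signalling 33 of 163 (20.2%), and POU, SOX, KLF and other pluripotency factors 14 of 73 (19.2%). When only summits within 100 kb were counted the shares were 13.3%, 9.03%, 16.6% and 16.4%, beside 8.58% of all genes. The median distance of the peaks was 121 kb for the guidance genes and 266 kb for the adhesion genes, against 19.5 kb over all. Shared knockout peaks were nearest to 18, 42, 28 and 19 genes of the same groups, beside 1848 of all 20780 genes. Shares above that of all genes were thus not particular to the knockout-only peaks.

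**Figure D5:**
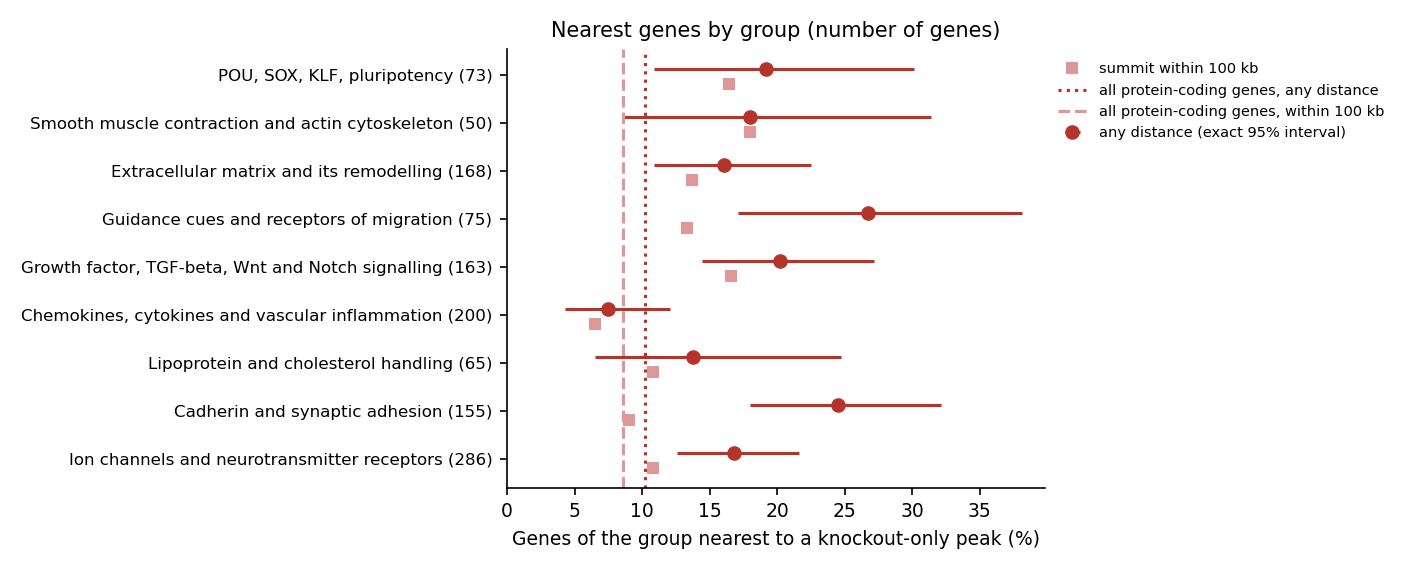
Share of each gene group (%, x axis, number of genes in brackets) nearest to a knockout-only peak at any distance (circles, exact 95% binomial interval) and with the summit within 100 kb (squares). Vertical lines mark the same shares over all 20780 protein-coding genes, 10.2% and 8.58%; the guidance group falls from 26.7% to 13.3% and the adhesion group from 24.5% to 9.03%.

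Among guidance genes, Plxna4, a plexin receptor of semaphorins, had an intronic peak of 17 fragments (fold 12.3). The ephrin receptor genes Ephb3 and Epha4 had peaks of 16 and 14 fragments, at 93.2 and 7.68 kb. Sema3c, a secreted semaphorin, had 11 fragments in an intron. Of the 20 guidance genes, 7 were nearest to no wild-type peak, beside 1571 of the 2128 nearest genes in all.

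Among signalling genes, Hey1, a transcription factor induced by Notch, had a peak of 16 fragments 37.1 kb upstream. Kit, the receptor of stem cell factor, had 14 fragments at 56.7 kb. Peaks of 13 fragments lay near Tcf7, a transcription factor of Wnt signalling, Bmp4, a bone morphogenetic protein, and Dkk4, a secreted Wnt inhibitor. The Dkk4 peak lay in an intron of Polb. None of the 41 knockout-only peaks of this group lay within 1 kb of a start.

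In the group of POU, SOX and KLF family genes and pluripotency factors, the SOX gene Sox30 had an intronic peak of 13 fragments. The KLF gene Klf12 had one of 12. Tfcp2l1 and Esrrb, which act in the network of embryonic stem cells, had 11 fragments each, and Klf5 had 10. The Klf5 peak lay in an intron of Pibf1. The nearest knockout-only peak to Pou5f1 itself was 70.8 kb from its start, and that to Klf4, the other factor of the study, 364 kb. No peak of this group lay within 1 kb of a start.

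SMC contraction and actin genes had 9 of 50 members (18%, 8.58 to 31.4), each with a summit within 100 kb. Cald1, the actin-binding caldesmon, had an intronic peak of 12 fragments 9.60 kb downstream of a start. Ppp1r12a, the targeting subunit of myosin phosphatase, Kcnma1, a calcium-activated potassium channel, and Cacna1c, the L-type calcium channel of SMC, had 11 fragments each. Mrtfa, a coactivator of serum response factor, had 10, with a wild-type peak 4.09 kb away. From the starts of the SMC marker genes Acta2, Myh11, Tagln and Cnn1 the nearest knockout-only peak lay 609, 307, 58.8 and 1103 kb away.

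Extracellular matrix genes had 27 of 168 members (16.1%). Adamtsl3, a secreted ADAMTS-like protein, had a peak of 16 fragments 6.34 kb downstream of its start. Adamts6, a matrix protease, and Col1a2, a chain of type I collagen, had 13 each. Lama4, a laminin chain of vascular basement membrane, and Ltbp3, which binds latent TGF-beta, had 12, the latter at 1.39 kb.

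Ion channels and neurotransmitter receptors had 48 of 286 members (16.8%, within 100 kb 10.8%). Cacna2d3, a calcium channel subunit, had 16 fragments, Cacna1a, a neuronal calcium channel, 13, and the glutamate receptor genes Grin2a and Grik1 12 each, as had Adra1d, an alpha-adrenergic receptor. In the adhesion group Cadm2 led with 16 fragments, ahead of Ntm with 15 and Pcdhac2, Nrxn2 and Adgrl2 with 13. The Nrxn2 peak, at 0.942 kb, was the one peak within 1 kb of a start among the genes of the 9 lists drawn in the plot of gene groups. Asic3 and Podn, named above for their promoter peaks, are not in these lists.

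Lipoprotein and cholesterol genes had 9 of 65 members (13.8%). Apoh, an apolipoprotein of plasma, and Scarb2, a lysosomal membrane receptor, had 11 fragments. Lrp8, a receptor for apolipoprotein E, had 10. Pltp, the phospholipid transfer protein, and Abca1, the exporter of cholesterol to apolipoprotein A-I, had 9 each. The Apoh summit lay in an intron of Prkca, 80.4 kb upstream of the Apoh start. At the Scarb2 summit the 31 bases occurred 22 times in the assembly. Chemokine, cytokine and vascular inflammation genes had 15 of 200 (7.50%, 4.26 to 12.1). Tnfrsf10b, a death receptor, and Cxcr5, a chemokine receptor of B cells, had 13 fragments, Tnfsf12, the cytokine TWEAK, 12, Tnfsf8 10 and Il20ra 9.

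Short lists of markers of other arterial cell types were counted in the same way. A knockout-only peak was nearest to 1 of 16 endothelial markers (6.25%, 0.158 to 30.2), which was Vwf with 9 fragments at 3.26 kb, and to 0 of 17 macrophage markers (0 to 19.5). It was nearest to 1 of 15 T lymphocyte markers (6.67%, 0.169 to 31.9), at 565 kb, and to 2 of 14 fibroblast markers (14.3%, 1.78 to 42.8). Of these, Col14a1 had 11 fragments at 55.0 kb, in an untranslated region of Deptor, and Pdgfra had 10 at 23.1 kb. Vwf and Pdgfra were also the nearest genes of a wild-type peak. Shared knockout peaks were nearest to 1 endothelial, 4 macrophage, 0 T lymphocyte and 1 fibroblast marker genes. All 4 intervals of the knockout-only shares hold the 10.2% of all genes. Peaks give no expression, and the cell type that a peak came from cannot be told apart in this tissue.

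Knockout-only peaks were present on all 19 autosomes, at 0.745 per Mb (chromosome 15) to 1.52 per Mb (chromosome 11). Their share of the knockout peaks outside dense bins ran from 45.3% on chromosome 12 to 60.1% on chromosome 7. No chromosome was without them or made up of them.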

How the data were processed

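Oct4 ChIP-seq of pooled aortic tissue gave 1 sample per genotype. Per the labels, Bowtie placed the reads on GRCm38.p6, SAMtools served to discard duplicates, and MACS2 made the calls (q under 0.05). Versions and the control of each call are not given in the sources used here. The 3 deposited lists give a score (10 times the −log10 q), the fold enrichment as a ratio, the −log10 p, the −log10 q and, as another value, the summit offset. The list named wild-type over knockout equals the wild-type list in all 5455 entries and was not used further. Read depth is not given in the lists. The expected pileup was recovered from the steps of the fold values, and the −log10 p computed from it differed from the deposited one by at most 3.48e-05.

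Overlap meant 1 shared base. Genes were those of GENCODE M21, nearest by distance from the summit to the start of any annotated transcript of a protein-coding gene. Letters were sought within 100 bp of summits and in equal windows 1000 bp to each side, on the GRCm38.p6 sequence, whose lower-case bases are the repeat mask. Binomial intervals were exact (Clopper-Pearson). With 1 sample per genotype the genotypes could not be tested. Named were the genes of the 20 peaks with the largest −log10 q, of the 10 strongest within 1 kb of a start, of the 5 genes with the most peaks, of up to 5 per gene list within 100 kb, and of up to 6 with an octamer. The members, lists and tests were chosen with earlier results of these data known. Alternatives changed the separation, the q limit, the dense-bin limit, the gene definition, the windows and the pileup. The software was scipy 1.17.1, numpy 2.4.6, numba 0.67.0, pandas 2.3.3 and matplotlib 3.10.9 under Python 3.11.15, and the code was tested on simulated data. The Klf4 ChIP-seq and the RNA data were not analysed here. Some sequences are not reported here.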

Additional observations from a re-analysis of the deposited data

How the results depend on the processing

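Of 42 alternatives computed, 35 left the result unchanged. These include the plain counts, 2460 to 3019 knockout-only peaks and 2086 to 2355 nearest genes, which have no threshold to cross. The others of the 35 were tested differences that kept their direction and side of the threshold. The difference from shared peaks within 1 kb of a start turned to 0.931 points at a limit of 2.5 kb and to 0.364 among peaks of 10 to 13 fragments. The difference inside genes turned to −1.50 points with dense bins kept, and the octamer difference to −0.487 at 10 to 13 fragments. The repeat-masked difference passed 0.05 when most bases within 50 bp were counted (−7.02 points, Fisher's exact test, adjusted p = 1.93e-06), with dense bins kept (−3.15, adjusted p = 0.0260) and with bins left out at 10 summits (−3.21, adjusted p = 0.0200). The cause of these changes was not tested. No paired analysis was possible because each genotype has a single ChIP sample. Depth limits every set: a peak of under 5 fragments is in neither list.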
